A study of Mus musculus with 16 samples.

Results

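The cells compared here were the wild-type (WT) host cells of chimeric mouse embryos, collected at embryonic day (E) 8.5 and E9.5. Chimeras were made by injecting *Stat3* null embryonic stem cells (ESCs) that carry a tdTomato reporter into CD1 blastocysts, so every embryo that gave WT cells also held *Stat3* null cells. After dissociation, cells were sorted on tdTomato, and each sorted pool was sequenced as a 3′ single-cell library. The WT cells are therefore the tdTomato-negative CD1 cells of both stages, with no treatment other than the chimerism. Cells of embryos that also held *Stat3* null cells were compared between stages, and no unmixed CD1 embryo was among the samples. The study reports that null cells appeared scarce in the erythroid lineage at E9.5, so the mixture need not be alike in every tissue and stage.

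A cell was kept when it came from a tdTomato-negative sort, had no unique molecular identifier (UMI) of the tdTomato transcript, was not called a doublet and passed the study's quality filter. This left 17948 WT cells of E8.5 and E9.5 out of 37841 cells analysed in the series. They fell into 85 cell types, named by the authors through mapping each cell to its 25 nearest neighbours in an atlas of mouse embryos. Expression was compared within the 31 types that had over 15 cells in 2 or more libraries of each stage, which together held 13288 cells, 4856 of E8.5 and 8432 of E9.5. Of these types, 18 passed that number in all 6 libraries.

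There were 2 E8.5 libraries, A and B, with 2544 and 3825 cells, and 4 E9.5 libraries, A to D, with 3080, 2641, 1904 and 3954 cells. The letters only name libraries. The labels give about 4 embryos to a pool at E8.5 and 1 embryo to a pool at E9.5, whereas the study's methods give 2 embryos at E9.5, so the number of separate E9.5 embryos behind the 4 libraries is open and p-values measure the spread between libraries. Total UMIs ranged from 74617985 to 114476702 per library, and the median cell held between 18205 and 39962 UMIs. *Xist*, the RNA of the inactive X chromosome, was at 622 and 625 CPM, the usual unit of counts scaled to a fixed library total, in E9.5 libraries B and C and at no more than 0.323 CPM in A and D, so both sexes were present at E9.5. *Xist* was at 0.0844 and 116 CPM in E8.5 A and B. E9.5 libraries C and D shared 292 cell barcodes, 15.3% of the cells of C, against 0 to 6 shared barcodes in every other pair. Of these 292, 10 had the same cell type in both, and the 292 cells of C held 616 CPM of *Xist*. No pair of libraries of 1 stage agreed within sampling noise. Without cells of shared barcodes, an alternative chosen after seeing the data, 8601 gene calls within types stood in place of 8649, 153 in place of 158 in the averaged profile, 17 types in place of 13 differed in share and the atlas stage difference was 0.202 days in place of 0.201. E8.5 B mapped to earlier atlas days than E8.5 A, and results for which this matters are given by library.

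Between E8.5 and E9.5 the mouse embryo turns, closes most of the neural tube, extends its trunk and tail and begins limb buds, while primitive red cells of the yolk sac enter the circulation that the new heartbeat drives. Hox genes, arranged in clusters, are switched on in order along the body axis, so that genes from the later end of a cluster mark more posterior and later-formed tissue. *Nr6a1* encodes an orphan nuclear receptor that represses *Pou5f1* and acts in forming the trunk, *Prtg* encodes protogenin, a cell-surface protein of early neural and mesodermal tissue, and *Lin28a* encodes an RNA-binding protein that blocks maturation of let-7 microRNAs. Embryonic cells before and during early organ formation rely heavily on glycolysis, and many genes of glucose uptake and glycolysis are induced under low oxygen by hypoxia-inducible factors, which bind a core of ACGTG or GCGTG.

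Promoters of the genes that fell across tissues are shown first, because the genes of glucose handling, described further down, had calls in 1 direction only. They are the 200 bases upstream of the transcription start of 4 genes of that group, from RefSeq on GRCm38.p6, and each is printed 5′ to 3′ on the strand of its gene. Capitals mark ACGTG or GCGTG, or their reverse complements CACGT and CACGC, and adjacent matches may overlap. *Slc2a1* encodes the glucose transporter GLUT1 (chr4:119108545-119108744, plus strand), *Slc16a3* the lactate exporter MCT4 (chr11:120948867-120949066, plus strand), *Bnip3* a mitochondrial protein of mitophagy (chr7:138909507-138909706, minus strand) and *Pgk1* phosphoglycerate kinase (chrX:106186900-106187099, plus strand).
Slc2a1: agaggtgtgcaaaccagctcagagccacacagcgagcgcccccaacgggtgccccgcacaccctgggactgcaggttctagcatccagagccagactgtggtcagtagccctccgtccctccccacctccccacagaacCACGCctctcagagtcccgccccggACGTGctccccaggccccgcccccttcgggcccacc
Slc16a3: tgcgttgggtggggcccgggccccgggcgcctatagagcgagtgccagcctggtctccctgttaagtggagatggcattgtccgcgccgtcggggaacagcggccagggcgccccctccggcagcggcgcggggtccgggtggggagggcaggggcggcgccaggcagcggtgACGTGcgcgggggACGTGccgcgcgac
Bnip3: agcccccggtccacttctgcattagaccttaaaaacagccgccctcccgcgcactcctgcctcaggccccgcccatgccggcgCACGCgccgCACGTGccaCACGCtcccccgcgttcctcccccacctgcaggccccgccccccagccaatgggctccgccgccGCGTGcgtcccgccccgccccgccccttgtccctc
Pgk1: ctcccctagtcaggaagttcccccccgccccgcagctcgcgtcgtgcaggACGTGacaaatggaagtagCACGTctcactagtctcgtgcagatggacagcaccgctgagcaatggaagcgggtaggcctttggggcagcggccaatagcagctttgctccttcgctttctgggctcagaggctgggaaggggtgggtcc
The printed stretch held 2 matches for *Slc2a1*, 2 for *Slc16a3*, 5 for *Bnip3* and 2 for *Pgk1*. Within 250 bases upstream, 17 of the 23 promoters of the glycolysis and hypoxia list that had an entry (73.9%) held at least 1 match to either motif, against 10431 of 27025 promoters of all genes (38.6%). For ACGTG alone the shares were 47.8% and 16.6%, and for GCGTG alone 47.8% and 28.2%. The list was chosen partly for hypoxia genes and holds *Hk1*, *Pfkm* and *Vegfa*, which were not lower in the averaged profile. These shares therefore describe the list and do not test the fall, and base content was not matched. A match describes letters in this window and does not show that a factor bound there.

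The make-up of the host cells differed between the stages. Of 72 cell types with at least 20 cells, 13 (18.1%) differed in their share of a library's cells at an adjusted p under 0.05 (edgeR quasi-likelihood test on cell numbers with Benjamini-Hochberg adjustment), 7 of them larger (9.72%) and 6 smaller (8.33%) at E9.5. Erythroid cells, the haemoglobin-making primitive red cells, made up 16.7% and 16.3% of E8.5 libraries A and B, and 5.32%, 1.63%, 2.0% and 3.41% of E9.5 libraries A to D. Every E9.5 library lay below both E8.5 libraries. The mean share was 16.5% ± 0.342 (SD, n = 2) at E8.5 and 3.09% ± 1.68 (SD, n = 4) at E9.5, a log2 change of −2.25 ± 0.49 (SE), with adjusted p = 0.0189.

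The types that grew were neural, somitic and limb types. Dorsal midbrain neurons went from 0.865% and 0.209% at E8.5 to 11.7%, 7.91%, 8.19% and 3.69% at E9.5 (adjusted p = 0.0127). Sclerotome, the somite part that forms vertebrae and ribs, went from 3.26% and 1.65% to 6.33%, 6.82%, 9.72% and 5.82% (adjusted p = 0.0337). Limb mesoderm went from 2.71% and 2.12% to 5.81%, 5.26%, 6.36% and 9.51% (adjusted p = 0.0309). In each of these 3 types the libraries of the stages did not overlap, as in all 13 types that differed. Hindbrain floor plate rose from a mean of 1.25% ± 0.178 (SD, n = 2) to 3.99% ± 1.20 (SD, n = 4), and hindbrain neural progenitors from 0.517% ± 0.103 to 2.32% ± 0.992. Neural tube and otic neural progenitors had 0 cells in both E8.5 libraries, where up to 0.0471% of the E8.5 cells would be allowed by a count of 0, and 41 and 38 cells at E9.5, at least 7.52-fold and 6.97-fold higher shares.

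The types that shrank, besides erythroid cells, were progenitors of the elongating axis and early endothelium. Spinal cord progenitors fell from 2.91% ± 0.504 (SD, n = 2) to 0.780% ± 0.342 (SD, n = 4). Neuromesodermal progenitors (NMPs), the tail-end cells that feed both spinal cord and somites, fell from 1.27% ± 0.572 to 0.383% ± 0.105, and the mesoderm-biased NMPs from 0.530% ± 0.249 to 0.0623% ± 0.0753. Allantois endothelium fell from 0.602% ± 0.406 to 0.0253% ± 0.0506, and embryo proper endothelium from 0.863% ± 0.332 to 0.199% ± 0.114. Shares sum to the whole of a library, so a fall in 1 type raises the others. Cells lost in dissociation or sorting were not measured. The quality filter removed 18796 of 21553 listed barcodes in E8.5 A and 1933 of 6085 in E8.5 B. At E9.5 it removed 19934 of 23417 in A, 3071 of 5962 in B, 19956 of 22040 in C and 19924 of 24603 in D. The part of this filter in the shares was not tested. With cells holding a tdTomato UMI kept, 15 types differed. Without E8.5 A or without E8.5 B, which leaves 1 sample at that stage, 0 types differed, and without E9.5 A or E9.5 C 2 and 3 types did.

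**Figure D1:**
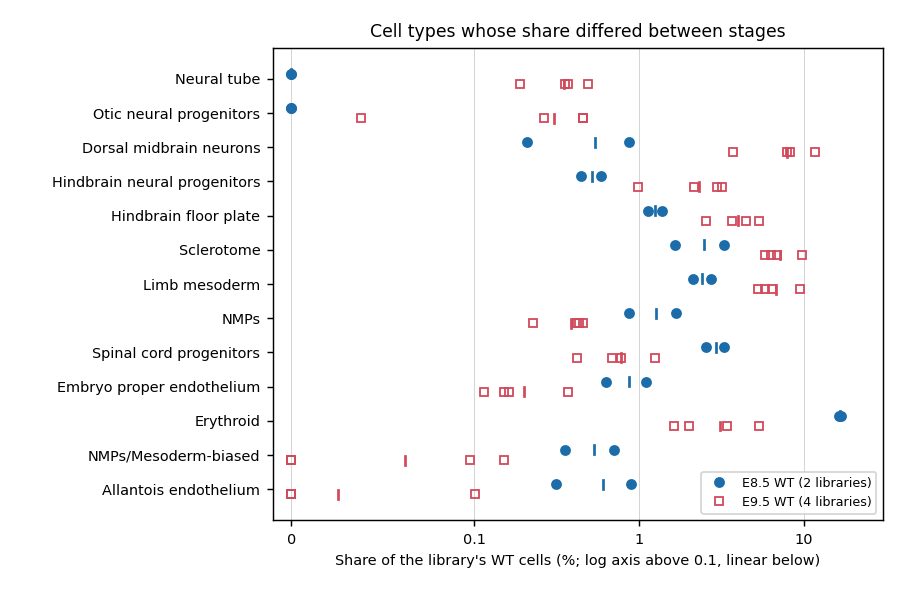
Share of each library's WT cells (percent, symmetric log axis) for the 13 cell types whose share differed between stages. Points are single libraries of E8.5 (2) and E9.5 (4), and erythroid cells lie at 16.3 to 16.7% at E8.5 and at 1.63 to 5.32% at E9.5.

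Cells of 1 named type also mapped to later atlas embryos at E9.5. The atlas day of a cell, averaged within each of the 18 types and then over types, was 8.91 and 8.78 in the E8.5 libraries and 9.05, 9.05, 9.06 and 9.01 in the E9.5 libraries. The means were 8.84 ± 0.0869 days (SD, n = 2) and 9.05 ± 0.0214 days (SD, n = 4), and the difference was 0.201 days (exact two-sided permutation test, p = 0.0667, the smallest that 2 against 4 libraries allow). The mean mapped day was later at E9.5 in 31 of 31 types, by 0.0198 days in posterior somitic tissues and by 0.689 days in allantois, the extremes. The latest atlas stage among the mapped cells was E9.5, which 3.71% of the E9.5 cells and 2.21% of the E8.5 cells took, so the measure has a ceiling and its difference is not a length of time. A difference within a named type therefore compares cells that took the same name and that also sit at different places along the atlas, and a shift among finer states inside a type cannot be told apart from a change within each cell.

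Within types, most of the genes that passed a threshold on both p and fold were higher at E9.5. A gene was called when its adjusted p in that type was under 0.05 and its log2 fold change was over 1 in size (edgeR quasi-likelihood test on UMIs summed per library). Over the 31 types, 8649 of 270799 tests were called (3.19%), 5879 higher (2.17%) and 2770 lower (1.02%). The median log2 change of all tests was 0.01. Without the fold threshold 26118 tests passed, 12132 of them higher, so small changes within types were not mostly rises. Without E8.5 B the calls numbered 4898. Branchial arch neural crest had the most calls, 669 of 9782 genes (6.84%), followed by optic vesicle with 571 and migratory neural crest with 568. Erythro-myeloid progenitors (EMP), the yolk sac progenitors of definitive blood, had the fewest, 54 of 8312 genes (0.650%), and were the only type with more lower (39) than higher (15) calls. Types differ in cells and in depth, so these counts do not rank how much the types changed.

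**Figure D2:**
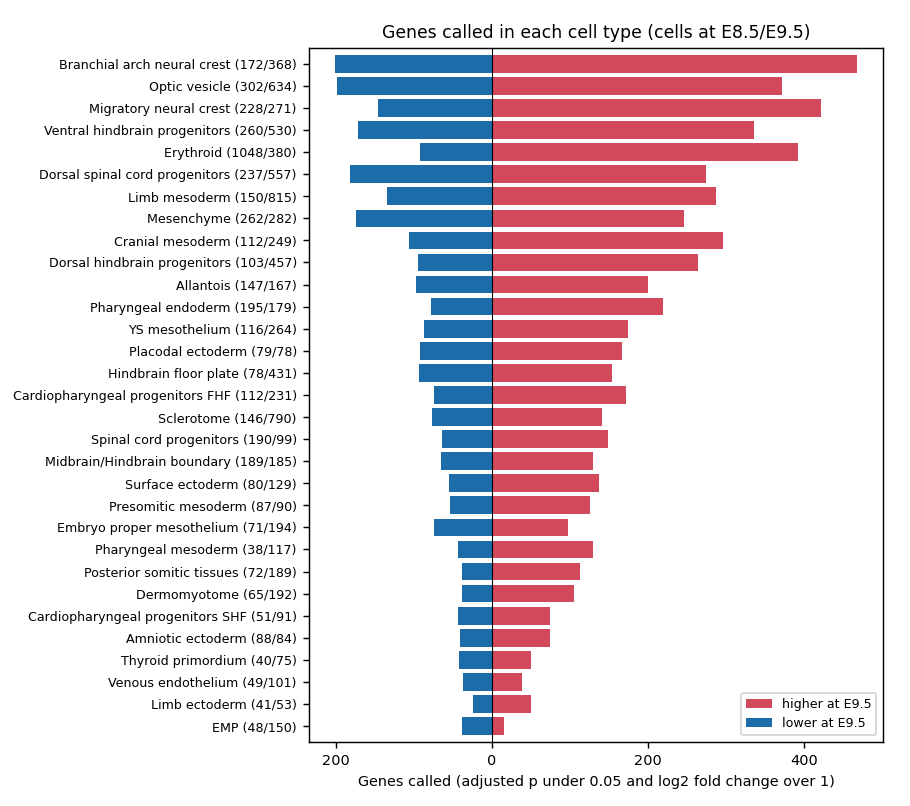
Number of genes called higher (right) and lower (left) at E9.5 in each of the 31 cell types, as bars from 0. Branchial arch neural crest had the longest bar with 468 higher and 201 lower, and EMP the shortest with 15 and 39.

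Of 12617 genes tested, 3346 were called in at least 1 type. Of the 2425 called higher, 1281 were called in exactly 1 type, and of the 1288 called lower, 758 were. Genes shared by many types were fewer: 71 were called higher and 33 lower in 10 or more. To describe the shared part, the log2 CPM of a gene was averaged over the 18 types present in every library, giving 1 value per library in which each type weighs the same. In this averaged profile 158 of 9574 genes (1.65%) were called (limma, adjusted p under 0.05 and a difference over 1), 132 higher (1.38%) and 26 lower (0.272%), and 3783 had an adjusted p under 0.05 at any size, 25% of genes higher and 14.6% lower. Without E8.5 A 265 genes were called. With all libraries and at any size, rises outnumbered falls in this profile (2389 and 1394 genes), unlike in the tests within types. In all 158 called genes the libraries of the stages did not overlap, so a lack of overlap does not set 1 called gene apart from another. CPM values quoted from the averaged profile are geometric means over the 18 types.

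*Nr6a1*, *Prtg* and *Lin28a* were among the 15 genes called lower in most types. *Nr6a1* was at 99.7 and 119 CPM in the averaged profile of the E8.5 libraries and at 23.4, 30.1, 31.5 and 39.2 CPM in the E9.5 libraries, a log2 difference of −1.84 ± 0.21 (SE, adjusted p = 0.00199). Its E9.5 libraries all lay below both E8.5 libraries, and it was called lower in 27 of the 31 types and was negative in all 31. *Prtg* was at 400 and 429 CPM against 129, 168, 165 and 191 CPM, a log2 difference of −1.36 ± 0.15, and was called lower in 24 types. *Lin28a* was at 138 and 170 CPM against 53.7, 72.1, 64.2 and 84.9 CPM, a log2 difference of −1.17 ± 0.20 (adjusted p = 0.00890), and was called lower in 18 types. For all 3 genes the stages did not overlap. Without E8.5 B *Lin28a* was called lower in 11 types and its averaged difference, −1.02, was no longer called (adjusted p = 0.0586).

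The partners of *Lin28a* did not fall to the same extent. Of 366 tests on the 12 genes of the Lin28 and let-7 axis, 30 were called lower and 1 higher, beside 1.02% and 2.17% of all tests, with a median log2 change of −0.17 beside 0.01 for all tests. Of the lower calls 18 were of *Lin28a*. *Lin28b*, its paralog, differed by −0.20 ± 0.06 in the averaged profile (adjusted p = 0.0276) and was called in no type. *Trim71*, a let-7 target that encodes a ubiquitin ligase of early embryos, was at 220 and 247 CPM against 134, 158, 138 and 159 CPM, a difference of −0.67 ± 0.08 (adjusted p = 0.000218). *Hmga2*, a let-7 target, went the other way by 0.29 ± 0.08, and *Igf2bp1* differed by −0.06 ± 0.05 (adjusted p = 0.302). Without E8.5 B the list had 16 lower calls.

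*Slc2a3*, which encodes the high-affinity glucose transporter GLUT3, was called lower in 23 types, and its averaged level was 73.1 and 90.6 CPM at E8.5 and 26.4, 26.4, 26.3 and 32.3 CPM at E9.5. *Slc2a1* was called lower in 17 types, *Slc16a3* in 15 and *Bnip3* in 14. Others among the 15 genes called lower in most types were *Fam162a* (13 types), a mitochondrial hypoxia-response gene, *Emb* (13), which encodes embigin, a chaperone of lactate transporters, *Car4* (14), a membrane carbonic anhydrase, *Plac8* (12), *Prelid2* (17) and the imprinted placental growth gene *Phlda2* (14). *Car4* had one of the largest differences, from 43.4 and 66.8 CPM to 8.39, 12.3, 7.73 and 15.8 CPM (log2 −2.35 ± 0.38). *Phlda2* was at 15 and 42 CPM against 4.31 to 7.60 CPM, and E8.5 A lay nearer to every E9.5 library than to E8.5 B. The histone genes *Hist1h3b* and *Hist1h4h*, called in 19 and 16 types, have near-identical copies between which the reads could be split, so their values are uncertain. Several of these counts rested on 1 E8.5 library. Without E8.5 B *Slc16a3* was called lower in 8 types, *Phlda2* in 7 and *Emb* in 6, and without E8.5 A *Bnip3* and *Prelid2* were called in 7 types each, *Emb* in 20, *Hist1h3b* in 4 and *Hist1h4h* in 2. The averaged difference of *Car4* was −2.04 without E8.5 B (adjusted p = 0.0541), and that of *Phlda2* was −2.11 without E9.5 A (adjusted p = 0.0827), −2.13 without B (0.0743) and −1.99 without C (0.0618).

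Genes called higher in most types included several enzymes. *Oxct1*, the enzyme that lets cells burn ketone bodies, was called higher in 20 types, with 23.1 and 22.7 CPM in the averaged profile at E8.5 and 65.7, 51.7, 57.6 and 50.4 CPM at E9.5 (log2 1.29 ± 0.10). *Ldhb*, the lactate dehydrogenase subunit that favours lactate use, was called higher in 19 types and went from 40.7 and 44.6 CPM to 149, 90.9, 120 and 112 CPM (log2 1.45 ± 0.20). *Ckb*, brain-type creatine kinase, was called higher in 18 types and went from 34 and 26.9 CPM to 187, 129, 158 and 123 CPM (log2 2.29 ± 0.21). Every E9.5 library lay above both E8.5 libraries for these 3 genes. *Eci1*, an enzyme of fatty acid oxidation, was called higher in 18 types. Without E8.5 B *Ckb* was called in 11 types and *Eci1* in 10.

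*Nfib*, a transcription factor of maturing neural and mesenchymal progenitors, was called higher in 19 of the 24 types in which it was tested and went from 2.60 and 2.67 CPM to 18.3, 11.3, 15.7 and 10.8 CPM (log2 2.38 ± 0.21). *Mfap4*, a microfibril protein, was called higher in 20 types, *Trps1*, a GATA-type repressor of skeletal development, in 19, and *Pdgfc*, a growth factor, in 16. The remaining genes of the 15 called higher in most types were *Tmem98* (18), *Fuom*, *Pmepa1*, *Spaca6*, *Aes* and *Ssbp4* (17 each) and *Plagl1* (16). *Bcl11a*, a repressor used in blood and brain, was called higher in 13 of 18 types and went from 1.66 and 1.48 CPM to 14.9, 8.26, 10.3 and 7.17 CPM. Without E8.5 B *Mfap4* and *Pmepa1* were called in 11 types each, *Trps1* and *Plagl1* in 10, *Tmem98* and *Fuom* in 9 and *Pdgfc* in 6, and without E8.5 A *Mfap4* was called in 13, *Pdgfc* in 10 and *Fuom* in 9.

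**Figure D3:**
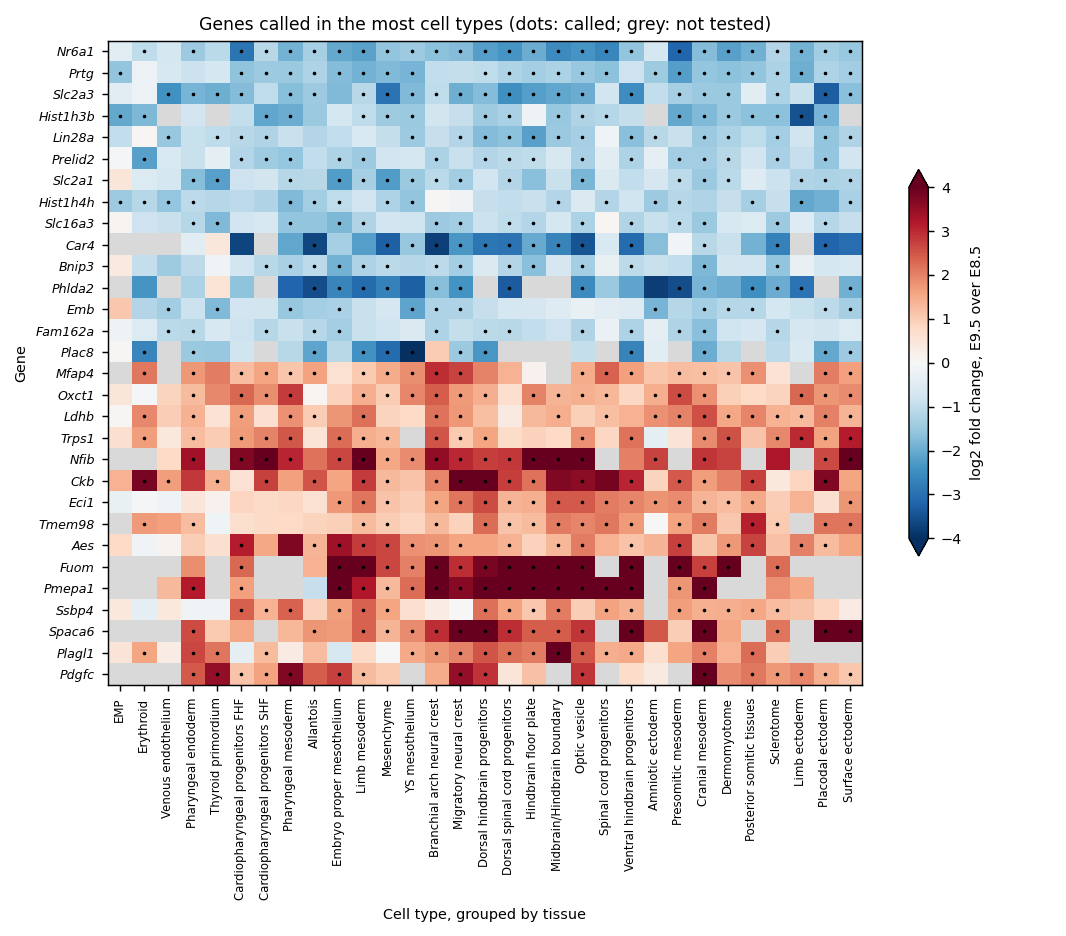
Log2 fold change (E9.5 over E8.5, colour scale) of the 30 genes called in most types, 15 higher and 15 lower, in each of the 31 cell types. Dots mark calls and grey marks types in which the gene was not tested, and *Nr6a1* carries a dot in 27 of 31 types.

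Glycolysis and hypoxia genes fell together. Of 682 tests on the 24 genes of this list, 137 (20.1%) were called lower, beside 1.02% of all tests, and 0 higher. The lower calls were in 20 genes, and the median log2 change was −0.63 beside 0.01 for all tests. No test of this list was called higher, and 0 in 682 stands beside 2.17% of all tests. In the averaged profile, 20 of the 23 genes present had an adjusted p under 0.05 and were lower, against 14.6% of all genes, and 1, *Vegfa*, was higher by 0.21 ± 0.08 (adjusted p = 0.0486). *Hk1* (0.18 ± 0.09, adjusted p = 0.136) and *Pfkm* (0.20 ± 0.08, adjusted p = 0.0635) did not pass. Leaving out 1 library in turn gave 97 to 147 lower calls, the fewest without E8.5 B.

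The fall ran from glucose uptake to lactate export. *Slc2a1* was at 185 and 221 CPM in the averaged profile at E8.5 and at 91.7, 81.9, 87.7 and 107 CPM at E9.5 (log2 −1.15 ± 0.11). *Ldha*, which makes lactate from pyruvate, was at 3434 and 3766 CPM against 1830, 1844, 2029 and 2184 CPM (log2 −0.87 ± 0.07). *Slc16a3* was at 225 and 263 CPM against 116, 98.1, 114 and 132 CPM (log2 −1.09 ± 0.11). In all 3 genes the stages were apart. Of the enzymes between them, *Pfkl* differed by −0.70 ± 0.06, *Aldoa* by −0.77 ± 0.06, *Tpi1* by −0.79 ± 0.05, *Pgk1* by −0.86 ± 0.06, *Pgam1* by −0.63 ± 0.06 and *Eno1* by −0.65 ± 0.08. *Gapdh* and *Pkm*, also glycolytic enzymes, differed by −0.47 ± 0.05 and −0.46 ± 0.07. *Pdk1*, the kinase that holds pyruvate back from mitochondria, differed by −0.76 ± 0.08. *Bnip3* differed by −1.09 ± 0.08.

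**Figure D4:**
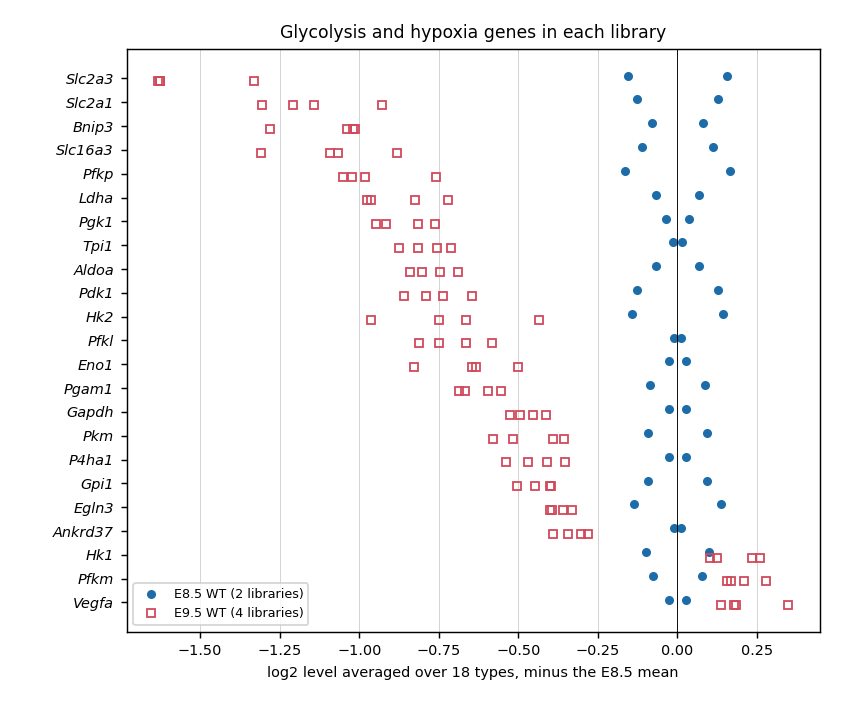
Log2 level averaged over 18 cell types, minus the mean of the E8.5 libraries, of 23 glycolysis and hypoxia genes in each of the 6 libraries. Points are single libraries, and for *Ldha* they stand for 3434 and 3766 CPM at E8.5 and for 1830 to 2184 CPM at E9.5.

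Tissues differed in how many members of the list were called. Cranial mesoderm had 11 of 22 lower, beside 1.18% of all genes tested there. Branchial arch neural crest had 10 of 23 (2.05% of all genes) and migratory neural crest 10 of 24 (1.50% of all genes). Amniotic ectoderm and EMP had 0 of 22 each, where 0.518% and 0.469% of all genes were called lower. In cranial mesoderm *Pgk1* was at 2341 and 2542 CPM at E8.5 and at 766, 796, 786 and 844 CPM at E9.5 (log2 −1.61 ± 0.08, adjusted p = 1.88e-17). In EMP the median of the list was 0.10. In amniotic ectoderm it was −0.56, with 17 cells in E8.5 A and only 2 E9.5 libraries with enough cells. In erythroid cells, where 1.05% of all genes were called lower, the called members were the enzymes *Eno1*, *Pgam1*, *Hk2*, *Pkm*, *Pgk1*, *Gapdh* and *Ldha* (without E8.5 B the fold of *Pgam1*, *Hk2*, *Gapdh* and *Ldha* was under the threshold, and *Hk2* was not called without E9.5 A either, adjusted p = 0.0586), while the glucose transporters were not called (*Slc2a1*, −0.56 ± 0.22, adjusted p = 0.112, and *Slc2a3*, −0.22 ± 0.49, adjusted p = 0.791). Differences between types in these counts were not tested.

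Genes of oxidative phosphorylation were mostly lower, by small amounts. Of 2406 tests on 79 genes of the respiratory chain and ATP synthase, 1 was called lower and 0 higher, beside 1.02% and 2.17% of all tests, and the median was −0.18. In the averaged profile 50 of 78 genes had an adjusted p under 0.05 and were lower, and 7 were higher, beside 14.6% and 25% of all genes, with a median of −0.21. An example is *Atp5g1*, a subunit of ATP synthase, with 1053 and 1131 CPM at E8.5 and 846 to 945 CPM at E9.5 (log2 −0.29 ± 0.06). These differences were far smaller than those of the glucose transporters.

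Hox genes were called higher more often than lower in 21 of the 30 types in which any was tested. These included brain types, optic vesicle (*Hoxc10*, *Hoxb3* and *Hoxc4*) and midbrain/hindbrain boundary (*Hoxb5* and *Hoxd3*), and erythroid cells. The part of RNA from other cells, or of mixed cells under 1 name, in the Hox calls was not tested. Of 633 tests on 36 Hox genes, 175 were called higher and 29 lower, beside 2.17% and 1.02% of all tests, with a median log2 change of 0.97. In the averaged profile 15 of 25 Hox genes were called higher and 1 lower, beside 1.38% and 0.272% of all genes. *Hoxc8* was at 9.12 and 6.32 CPM at E8.5 and at 35.3, 21.6, 31.8 and 25.6 CPM at E9.5 (log2 1.89 ± 0.24), and *Hoxb9* at 18.8 and 9.61 CPM against 59.5, 33.1, 50.1 and 50 CPM (log2 1.81 ± 0.38). *Hoxb1*, at the early end of its cluster, was called lower in 5 types. Without E8.5 B the list had 99 higher calls. The averaged difference of *Hoxb9* was 1.34 without that library (adjusted p = 0.0709) and 1.69 to 1.77 without E9.5 A, C or D (adjusted p = 0.0539 to 0.0610).

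Limb mesoderm had the most Hox genes tested, 36, with 15 higher and 3 lower, beside 2.72% and 1.27% of all genes in these cells. Genes of the late end of the HoxA and HoxD clusters, which pattern the limb and tail, were among those that rose. *Hoxd10* had 0 UMIs in both E8.5 libraries and was at 64.6, 59.3, 51.7 and 39.9 CPM in the E9.5 libraries, at least 49.2-fold higher when the floor is 3 counts over the E8.5 group. *Hoxa11*, also with 0 UMIs at E8.5, was at 69.2, 47.3, 42.6 and 35.0 CPM, at least 44.7-fold higher. *Hoxd11* had 1 UMI at E8.5 and was at 122, 91.1, 82.8 and 71.2 CPM, a ratio of 256 with a 95% counting interval of 45.8 to 10103. All 3 were absent or at 1 UMI at E8.5 and present in every E9.5 library. *Hoxa13* was at 7.65, 12.2, 6.21 and 9.78 CPM at E9.5, at least 8.66-fold higher. *Hoxb1* was at 63.6 and 86.2 CPM at E8.5 and at 5.60, 13.8, 10.3 and 12 CPM at E9.5 (log2 −2.82 ± 0.27). The call of *Hoxa11* was lost without E8.5 A (adjusted p = 0.127), E8.5 B (0.0956), E9.5 B (0.112) or E9.5 C (0.0687).

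Other limb bud genes moved in the same cells. *Lhx9*, a LIM factor of limb outgrowth, had 0 UMIs at E8.5 and was at 130, 161, 119 and 87.6 CPM at E9.5, at least 111-fold higher. *Lhx2*, its relative, went from 2.38 and 1.94 CPM to 117, 144, 112 and 82.2 CPM (log2 5.65 ± 0.57). *Tbx4*, a hindlimb factor, had 2 UMIs at E8.5 and was at 14.5 to 23.7 CPM at E9.5, a ratio of 30.2 with a counting interval of 8.33 to 250. *Tbx5*, the forelimb factor, did not rise: it was at 90.3 and 62.0 CPM at E8.5 and at 32.6 to 46.8 CPM at E9.5 (log2 −0.99 ± 0.20, adjusted p = 0.00744, just short of the fold threshold). *Fgf10*, the growth factor of the early bud, differed by −0.15 ± 0.18 (adjusted p = 0.649). *Lhx9* was not called without E8.5 A (adjusted p = 0.0652), E9.5 A (0.0565) or E9.5 C (0.0617).

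Sclerotome gained Hox genes of groups 3 to 9, 14 of 29 higher, beside 1.30% of all genes, and 0 lower. *Hoxc6* had 1 UMI at E8.5 and was at 76.4, 51.1, 80.2 and 47.8 CPM at E9.5, and *Hoxb9* went from 2.02 and 2.78 CPM to 124, 102, 134 and 69.8 CPM. With either E8.5 library left out neither was called (adjusted p = 0.0980 to 0.254), nor was *Hoxb9* without E9.5 A (0.0504) or B (0.0792). Mesenchyme had 14 of 32 higher and 3 lower (2.49% and 1.76% of all genes), and migratory neural crest 13 of 25 higher and 1 lower (4.33% and 1.50% of all genes). Presomitic mesoderm, the unsegmented tissue of the tail end, had 6 higher, all of groups 10 to 13, and 6 lower, of groups 1 to 9 (*Hoxc8*, *Hoxa7*, *Hoxb6*, *Hoxd1*, *Hoxb8* and *Hoxb9*), beside 1.61% and 0.690% of all genes. Of the lower 6, *Hoxb6*, *Hoxd1* and *Hoxb8* were not called without E8.5 A, and *Hoxb6* and *Hoxb9* were not without E8.5 B. In extra-embryonic mesoderm, allantois had 0 of 28 called, beside 3.38% of all genes, and yolk sac (YS) mesothelium 0 higher and 3 lower of 12, beside 1.96% and 0.981% of all genes.

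**Figure D5:**
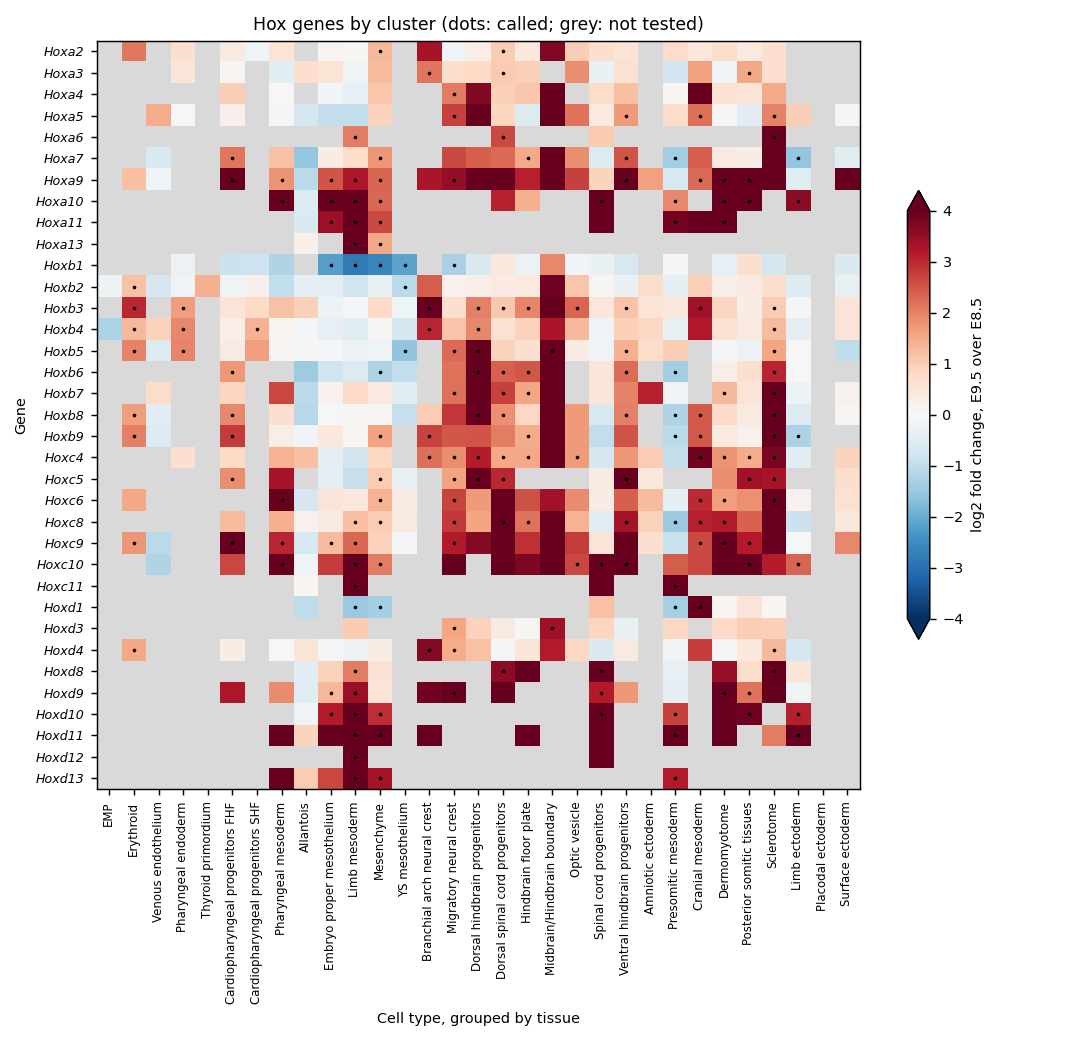
Log2 fold change (E9.5 over E8.5, colour scale) of Hox genes in the cell types. Dots mark calls and grey marks genes not tested, and limb mesoderm carries 15 calls higher, mostly at the late end of the clusters.

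Of 445 tests on 15 imprinted growth genes, 56 were called higher (12.6%) and 17 lower (3.82%), beside 2.17% and 1.02% of all tests, with a median of 0.25. *Cdkn1c*, a maternally expressed brake of the cell cycle, was at 179 and 163 CPM in the averaged profile at E8.5 and at 409, 349, 314 and 325 CPM at E9.5 (log2 1.02 ± 0.10) and was called higher in 13 types. *Dlk1*, a paternally expressed Notch-like ligand, was at 62.4 and 51.7 CPM against 184, 165, 173 and 179 CPM (log2 1.62 ± 0.07), higher in 12 types and lower in 1. *Plagl1*, a zinc finger factor, was higher in 16 types. The stages were apart for these 3. *Phlda2* accounts for 14 of the 17 lower calls. *Igf2*, *H19*, *Grb10*, *Peg3* and *Mest* differed by 0.22 to 0.41 in the averaged profile. Without E8.5 B there were 11 lower calls and *Plagl1* was higher in 10 types, and the averaged difference of *Cdkn1c* was 0.96 without E8.5 B and 0.94 without E9.5 A, under the fold threshold.

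Genes of DNA methylation had 16 calls higher (5.90%) and 4 lower (1.48%) in 271 tests, beside 2.17% and 1.02% of all tests. *Zfp57*, which protects imprints, was higher in 9 types and went from 11.9 and 12.6 CPM to 22.4, 20.5, 28.8 and 22.1 CPM (log2 0.93 ± 0.12). *Tet2*, a demethylating enzyme, was higher in 5 types (0.82 ± 0.11). *Dnmt3b*, a de novo methyltransferase of the early embryo, was lower in 4 types and went from 50.4 and 65.1 CPM to 32.8, 38.3, 33.4 and 36.5 CPM (log2 −0.70 ± 0.10). *Dnmt1*, the maintenance enzyme, differed by 0.07 ± 0.06 (adjusted p = 0.419). Of the epiblast and early embryo genes, 36 of 150 tests were called lower, beside 1.02% of all tests, 27 of them of *Nr6a1*, which is also in that list, and 4 higher. Without E8.5 B the methylation list had 7 calls higher.

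Collagens and other matrix genes had 125 calls higher and 20 lower in 768 tests, beside 2.17% and 1.02% of all tests, with a median of 0.38. *Col3a1*, a fibrillar collagen of soft connective tissue, was higher in 11 types, with 33.5 and 20.6 CPM in the averaged profile at E8.5 and 77.1, 71.5, 73.4 and 83.9 CPM at E9.5 (log2 1.54 ± 0.20). *Col2a1*, the cartilage collagen, was higher in 10 types (0.85 ± 0.08). *Mecom*, a zinc finger factor of the somite list, was higher in 12 types (1.43 ± 0.10). Without E8.5 B the list had 69 calls higher.

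Branchial arch neural crest, the crest that forms the face and jaw, changed in both directions. Of 26 crest genes tested, 8 fell and 4 rose, beside 2.05% and 4.78% of all genes. *Sox10*, the factor of migrating crest, was at 81.0 and 91.4 CPM at E8.5 and at 4.13, 1.05, 5.56 and 5.36 CPM at E9.5 (log2 −4.28 ± 0.23, adjusted p = 3.65e-11). *Barx1*, a homeobox gene of jaw and tooth mesenchyme, was at 3.03 and 0 CPM against 456, 329, 387 and 455 CPM (log2 7.60 ± 0.40). The libraries of the stages were far apart for both. *Foxd3*, *Erbb3*, *Ets1*, *Fabp7*, *Tfap2a* and *Tfap2b* also fell, and *Dlx3* and *Dlx1* were among those that rose. Of 31 matrix genes, 11 rose and 2 fell, among them *Col3a1* from 29.5 and 20.3 CPM to 164, 186, 126 and 145 CPM. Of the genes named, *Tfap2b* lost its call without E8.5 A, E8.5 B, E9.5 B or E9.5 C (adjusted p = 0.0821 to 0.187), *Dlx3* without E8.5 A, E8.5 B, E9.5 A or E9.5 D (0.0912 to 0.140), and *Tfap2a* without E9.5 D, with a log2 change of −0.98.

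Migratory neural crest kept *Sox10*, at 186 and 188 CPM against 264, 234, 239 and 176 CPM (log2 0.29 ± 0.13, adjusted p = 0.143), and gained neuronal genes. Of 32 neural genes, 14 rose and 1, *Sox9*, fell, beside 4.33% and 1.50% of all genes. *Neurod1*, a factor of new sensory neurons, had 0 UMIs and then 9.97, 21.7, 6.70 and 22.3 CPM, at least 22.3-fold higher. *Isl1* was at 0 and 1.78 CPM against 13.1, 23.6, 12.7 and 37.0 CPM. *Prdm12*, a factor of pain-sensing neurons, rose from 1.15 and 0.889 CPM to 54.4, 56.7, 53.6 and 22.9 CPM (log2 5.46 ± 0.65). *Pdgfra* fell by 2.32 on the log2 scale. Cranial mesoderm had 7 of 16 neural crest list genes called higher and 0 lower, beside 3.27% and 1.18% of all genes, among them *Dlx1*, *Tfap2b*, *Fabp7*, *Alx1*, *Alx4* and *Prrx1*. On summed somite markers it was the lowest somite type, at 155 CPM at E8.5 and 122 CPM at E9.5. The highest type outside the somite held 213 and 242 CPM. The part of crest cells or crest RNA under the name cranial mesoderm was not tested. *Isl1* was not called without E8.5 A, E8.5 B or E9.5 B (adjusted p = 0.0526 to 0.0631), or *Sox9* without E8.5 B or E9.5 C (log2 −0.99 and −0.92). In cranial mesoderm *Dlx1* was not called without E8.5 A or E8.5 B (0.188 and 0.220), *Fabp7* without E8.5 A (0.208), *Alx4* without E8.5 B (0.0699), or *Prrx1* without E8.5 B or E9.5 C.

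Optic vesicle, the brain pouch that forms the eye, was the neural tube type with the most cells at its smaller stage. *Vim*, the intermediate filament of neural progenitors, went from 62.0 and 47.7 CPM to 863, 616, 655 and 577 CPM (log2 3.64 ± 0.25). *Fabp7*, a radial glial lipid-binding protein, went from 3.02 and 2.43 CPM to 44.9, 46.6, 59.2 and 51.5 CPM (log2 4.22 ± 0.26), and *Id4* by a log2 change of 4.08 ± 0.25. *Vax2*, of the ventral eye, had 1 UMI at E8.5 and 19.4 to 45.4 CPM at E9.5. *Hesx1*, a factor of the early forebrain, fell from 19.6 and 52.2 CPM to between 0 and 0.979 CPM (log2 −6.30 ± 0.70), and *Eras*, a Ras relative of pluripotent cells, from 45.8 and 86.5 CPM to between 2.35 and 3.71 CPM (log2 −4.49 ± 0.26). *Aldh1a2*, *Edn1* and *Car4* fell as well. *Pax6* and *Sox2*, which mark the tissue, were not called (log2 −0.52 ± 0.11 and 0.02 ± 0.08). *Vax2* was not called without E8.5 A or B (adjusted p = 0.115 and 0.158), or *Aldh1a2* without E9.5 A or C (0.0781 and 0.0754).

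In mesenchyme, 3 of 21 cardiac genes fell, *Tnnt2*, *Tnnc1* and *Gata4*, and 1, *Isl1*, rose, beside 1.76% and 2.49% of all genes. *Tnnt2*, cardiac troponin T, was at 76.0 and 167 CPM at E8.5 and at 14.5, 12.7, 10.2 and 18.5 CPM at E9.5 (log2 −3.05 ± 0.38), and *Tnnc1*, the troponin C of slow and cardiac muscle, fell by 3.73 on the log2 scale. *Plac8*, at 262 and 309 CPM against 26.1 to 41.1 CPM, *Car4* and *Gas6* were the other 3 of largest fall. *Bcl11a* had 0 UMIs at E8.5 and 17.2 to 37.6 CPM at E9.5, at least 36.9-fold higher, and *Isl1*, *Aes*, *Epha3* and *Rprm* rose by log2 changes of 2.62 to 3.03. In cardiopharyngeal progenitors of the first heart field (FHF), *Tnnt2* and *Myl7* fell too, *Myl7* from 141 and 212 CPM to 23.7, 44.1, 39.7 and 55.7 CPM (log2 −2.0 ± 0.22), as did *Lhx1*, *Cd36*, *Nr6a1* and *Fosb*. *Msc*, a factor of head muscle progenitors, rose in these cells from 4.01 and 1.45 CPM to 122, 84.2, 78.1 and 68.5 CPM (log2 4.78 ± 0.41), and *Bcl11a*, *Nkx2-3*, *Cdo1* and *Pdlim3* were the other 4 of largest rise. Over the types compared, none of them cardiomyocytes, cardiac genes had 55 calls lower and 7 higher in 325 tests. These stand beside 1.02% and 2.17% of all tests, and 10 of the lower calls were of *Myl7*. Without E8.5 B there were 24 lower calls, *Tnnt2* was not called in FHF progenitors (adjusted p = 0.206), and *Car4* and *Aes* were not called in mesenchyme (0.0615 and 0.0560). *Rprm* was not called without E9.5 A, B or C (0.0625 to 0.0794), and *Nkx2-3* was not without E8.5 A (0.0518).

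Cardiac muscle RNA was seen outside the heart types as well. The summed heart markers were lower at E9.5 in 24 of 28 types that are not heart, with a median over types of 35.1 CPM at E8.5 and 19.5 CPM at E9.5, and in the 3 heart types they ranged from 109 to 172 CPM and then from 42.4 to 49.1 CPM. Allantois held more of them than the heart types at both stages, 381 and 563 CPM. The 3 heart types here were the FHF and second heart field (SHF) cardiopharyngeal progenitors and pharyngeal mesoderm. Cardiomyocyte types, each with at most 14 cells in E8.5 A, were not compared, so these values do not describe heart muscle cells. The summed blood markers were lower at E9.5 in 26 of 29 non-blood types, with medians of 7.78 and 3.94 CPM. Haemoglobin, which free RNA from red cells can bring to any droplet, took a median of 0.133% and 0.114% of the UMIs of non-blood types in the E8.5 libraries and of 0.0995%, 0.0255%, 0.0266% and 0.0739% in the E9.5 libraries. The summed neural tube markers were higher at E9.5 in 22 of 24 types outside the neural tube. Their medians were 21.3 and 33.5 CPM. Summed neural crest markers were higher in 19 and lower in 10 of 29 types outside the crest. The part of RNA from other cells in the falls of cardiac genes and the rises of neural and crest genes was not tested.

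In sclerotome 3 of 24 genes of the somite, muscle and cartilage list rose, beside 1.30% of all genes, and 0 fell. *Pax1* was at 56.6 and 77.9 CPM at E8.5 and at 207, 198, 225 and 154 CPM at E9.5 (log2 1.61 ± 0.21), *Pax9* at 26.3 and 15.3 CPM against 57.6 to 81.0 CPM (log2 1.69 ± 0.22), and *Mecom* at 18.2 and 11.1 CPM against 83.4 to 93 CPM (log2 2.47 ± 0.18). *Twist1*, already high, differed by 0.11 ± 0.08 (adjusted p = 0.421). *Ndufa4l2*, a hypoxia-induced mitochondrial gene, fell from 12.1 and 36.2 CPM to 0.832 to 2.56 CPM. *Irx1*, *Npr3*, *Hlf* and *Car4* were the others of largest fall. Without E8.5 A, *Pax1* and *Hlf* were not called (adjusted p = 0.0795 and 0.119).

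Presomitic mesoderm had over 15 cells in only 2 E9.5 libraries, A and D. *Cdx2* and *Cdx4*, the caudal factors of axis growth, fell there, *Cdx2* from 189 and 238 CPM to 55.3 and 66.4 CPM (log2 −1.78 ± 0.20) and *Cdx4* from 572 and 524 CPM to 174 and 280 CPM (log2 −1.27 ± 0.18). *Gdf11*, the signal that starts the shift from trunk to tail, rose from 40.1 and 63.8 CPM to 127 and 81.6 CPM, and *Wnt5a* from 170 and 150 CPM to 357 and 297 CPM. *T*, the brachyury gene, was at 169 and 145 CPM against 156 and 164 CPM (adjusted p = 0.984). *Foxf1* and *Hand1*, of lateral mesoderm, fell from 84.9 and 74.8 CPM to 0 and 7.62 CPM and from 62.5 and 85.8 CPM to 2.40 and 7.62 CPM. *Twist1* rose from 9.44 and 11 CPM to 202 and 271 CPM (log2 4.54 ± 0.28). With 2 libraries a stage, some calls were lost when 1 library was left out. *Gdf11* was not called without E8.5 A, E8.5 B or E9.5 A (log2 0.70 to 1.36), or *Cdx4* without E8.5 A or E9.5 A (−1.21 and −0.98). *Wnt5a* was not called without E8.5 B or E9.5 A (0.93 and 0.87), or *Foxf1* without E8.5 A (−4.18).

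In surface ectoderm 4 of 23 genes of the surface ectoderm list rose and 2 fell, beside 1.71% and 0.688% of all genes. *Krt8* and *Krt19*, keratins of simple epithelia, fell from 622 and 816 CPM to 311, 305 and 427 CPM and from 442 and 453 CPM to 230, 194 and 181 CPM, in the 3 E9.5 libraries with enough cells. *Krt18*, the partner of *Krt8* in filaments, was not called (−0.71 ± 0.25, adjusted p = 0.206). *Krt14*, a basal keratin, had 1 UMI at E8.5 and was at 38.7, 35.8 and 19.5 CPM at E9.5, a ratio of 40.2 with a counting interval of 7.01 to 1608. *Trp63*, the master factor of stratified epithelia, rose from 40.5 and 34.2 CPM to 164, 158 and 113 CPM (log2 1.95 ± 0.24), and its target *Perp* by 1.40 ± 0.25. *Neurog1*, a placodal neurogenic factor, fell from 34.5 and 32.3 CPM to between 0 and 2.60 CPM. *Krt8* lay under the fold threshold without E8.5 B, E9.5 A or E9.5 B (log2 −0.85 to −0.96), and *Perp* was not called without E8.5 B (adjusted p = 0.0807).

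Pharyngeal endoderm, which lines the pouches, gained *Pax1*, from 19.9 and 17.4 CPM to 58.1, 102 and 129 CPM (log2 2.38 ± 0.41), and *Barx1* (3.76 ± 0.63), and lost *Pyy*, a gut hormone gene, from 44.2 and 34.7 CPM to 3.83, 2.93 and 0 CPM (log2 −4.21 ± 0.45). *Ret* fell from 37.5 and 24.7 CPM to 2.93 to 6.76 CPM. *Cryab*, *Samd5*, *Cdkn1a* and *Plagl1* were the other 4 of largest rise. *Pax1* was not called without E8.5 A, E8.5 B or E9.5 B (adjusted p = 0.0533 to 0.218), or *Barx1* without E8.5 A or E8.5 B (0.0889 and 0.173).

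Venous endothelium had 76 calls (1.10%). *Emcn*, a sialomucin of veins and capillaries, rose from 206 and 225 CPM to 788, 557 and 561 CPM (log2 1.56 ± 0.16), and *Cd34* from 304 and 249 CPM to 542, 583 and 602 CPM (log2 1.04 ± 0.14). *Sox7*, a factor of early endothelium, fell from 54.4 and 71.3 CPM to 21.7 to 23.3 CPM (log2 −1.42 ± 0.32). *Gimap6*, an immune-associated GTPase gene, rose from 40.3 and 39.2 CPM to 239, 273 and 217 CPM (log2 2.59 ± 0.23), and *Slc2a3* fell from 107 and 107 CPM to 9.05 to 31.3 CPM. *Sox7* was not called without E8.5 B or E9.5 C (adjusted p = 0.0855 and 0.0663), and *Cd34* lay under the fold threshold without E8.5 B (0.92).

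EMP, in which 0.469% of all genes were called lower, lost endothelial genes, 4 of 25 tested, with 0 rising. *Cdh5*, VE-cadherin, was at 43.6 and 108 CPM at E8.5 and at 13.1, 6.79, 6.18 and 3.64 CPM at E9.5 (log2 −3.12 ± 0.48), and *Plvap* at 59.2 and 61.4 CPM against 7.29 to 11.3 CPM (log2 −2.72 ± 0.32). *Ramp2* and *Pecam1* fell as well. *Kit*, the stem cell factor receptor, fell from 150 and 161 CPM to 72.4, 62.3, 44.3 and 74.3 CPM (log2 −1.26 ± 0.20), while *Myb*, a factor of definitive progenitors, was not called (−0.36 ± 0.24, adjusted p = 0.543). The erythroid marker sum of EMP at E8.5, 13.4 CPM, was no higher than the highest of the non-blood types, 15.2 CPM, whereas at E9.5 it was 26.1 CPM, above the 12.7 CPM of the highest non-blood type. In erythroid cells the sum was 1167 and 1703 CPM. *Kit* and *Pecam1* were not called without E8.5 A or E8.5 B (adjusted p = 0.0744 to 0.237), *Cdh5* without E8.5 B or E9.5 B (0.0932 and 0.0659), *Ramp2* without E8.5 B (0.119), or *Pecam1* without E9.5 A (0.0709). *Plvap* was called with any 1 library left out.

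Erythroid cells held more haemoglobin mRNA at E9.5. The embryonic globin *Hbb-y* was at 72701 and 29731 CPM of all UMIs in E8.5 A and B and at 154783, 172338, 150076 and 148938 CPM in the E9.5 libraries, a ratio of means of 3.06. Haemoglobin mRNAs together were at 226501 and 138356 CPM against 318892, 351482, 314085 and 327407 CPM, a ratio of 1.80. Neither total overlapped between stages (exact two-sided permutation test, p = 0.0667 for each, the smallest that 2 against 4 libraries allow). *Hba-a1*, an adult-type alpha globin gene, had a ratio of 2.67, but it has a near-identical copy, *Hba-a2*, so its reads could be split. *Hba-x* and *Hbb-bh1*, the zeta and beta-h1 globins of the earliest red cells, had ratios of 1.11 each (exact permutation test, p = 0.400 and 0.467). As a share of all haemoglobin mRNA, *Hbb-y* went from a mean of 28.1% to 47.7% and *Hba-x* from 51.2% to 31.6%. Adult beta globin *Hbb-bs* stayed at 0.217 to 0.402% of haemoglobin mRNA in every library and has a near-identical copy as well. Its CPM ratio was 1.41, and that of *Hbb-bt*, also an adult beta globin gene, was 5.94 (exact permutation test, p = 0.2 for each). The mean share of *Hbb-bt* went from 0.00898% to 0.0297% of haemoglobin mRNA.

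Of 28 erythroid genes tested in these cells, 4 rose, beside 4.47% of all genes. *Bpgm*, the red cell enzyme that makes bisphosphoglycerate, went from 506 and 234 CPM to 1261, 1209, 1102 and 1154 CPM (log2 1.68 ± 0.34), and *Alas2*, the first enzyme of haem synthesis in red cells, from 768 and 515 CPM to 1256, 1415, 1406 and 1452 CPM (log2 1.11 ± 0.14). *Hemgn* (1.43 ± 0.29) and *Kel* (1.35 ± 0.34), a blood group antigen gene, were the other 2. *Mt1*, a metallothionein, rose from 705 and 319 CPM to 4810, 3616, 5189 and 2745 CPM. *Prss50* had 526 UMIs at E8.5 and 3 at E9.5, a ratio of 45.3 lower with a counting interval of 15.4 to 221, and *Ddah1* fell from 131 and 243 CPM to 6.44 to 16.5 CPM (log2 −3.97 ± 0.36). *F10*, *Tnni1* and *Prelid2* fell too. *AY036118* went from 382 and 275 CPM to 1565 to 2950 CPM. Of the 4 rises, those of *Bpgm*, *Hemgn* and *Kel* missed the threshold without any 1 of the E9.5 libraries (adjusted p = 0.0521 to 0.0910), and without E8.5 B *Alas2* and *Kel* lay under the fold threshold (log2 0.83 and 0.94). *Mt1* was not called without E8.5 B, E9.5 A, B or C (0.0570 to 0.0881), or *AY036118* without E8.5 B (0.0608).

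Erythroid cells also showed rises of genes that belong to other tissues: 14 of 24 neural genes, 12 of 24 matrix genes and 8 of 11 Hox genes were called higher, beside 4.47% of all genes in these cells. The summed neural tube markers in erythroid cells were 10.2 CPM (5.49 to 14.9) at E8.5 and 22.2 CPM (19.3 to 25.1) at E9.5, and somite markers 8.39 CPM (5.81 to 11) and 22.8 CPM (5.45 to 61.9), whereas the neural tube types themselves held 463 to 670 CPM and 648 to 1049 CPM. Markers of heart, gut and endothelium in erythroid cells went down, to 8.68, 2.50 and 1.81 CPM. At E9.5 the red cells gave a smaller share of the libraries. Some neural and somite types, such as dorsal midbrain neurons and sclerotome, gave a larger one, and others, such as spinal cord progenitors, a smaller one. The part of RNA from other cells in these calls was not tested.

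Cell cycle genes were called lower in few tests, beside 1.02% of all tests. Of 1202 tests on S phase genes, 1 was called lower and 0 higher, and of 1574 on G2 and M phase genes, 11 lower and 0 higher, with medians of −0.03 and −0.09. The 11 were in 2 types, 6 of 51 genes in amniotic ectoderm (median −0.47, beside 0.518% of all genes lower) and 5 of 48 in thyroid primordium (median −0.65, beside 0.755%). The dissociation response list, early genes induced by stress of the tissue, had 22 calls higher (4.98%) and 20 lower (4.52%) in 442 tests, beside 2.17% and 1.02% of all tests. *Fosb* was lower in 9 types, but its averaged level was 12.9 CPM in E8.5 A and 41.2 CPM in E8.5 B against 7.04 to 11.4 CPM, so most of that difference came from 1 library (adjusted p = 0.0993). *Fos* was lower in 6 types (adjusted p = 0.0680). Without E8.5 B there were 7 lower G2 and M phase calls, and without E9.5 D the dissociation list had 39 higher calls.

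The stage difference was also read in the *Stat3* null cells of the same embryos, to see where it departs from that of the WT cells. In 18 types, 14 of 173280 tests (0.00808%) of the interaction of stage and genotype were called, in 3 genes, and 5877 had an unadjusted p under 0.05 (edgeR). In 13 of the 14 the log2 change, taken with its sign and not by its size, was larger in null cells than in WT cells. Without E8.5 A 7 tests were called, without E9.5 D 20 (9 larger and 11 smaller in null cells), and with no filter on low counts 106 (51 larger and 55 smaller). Of the WT calls in these types that could be read in both, 5173 of 5270 had the same sign in null cells, which come from the same pools and are not independent of the WT values. *Cwc22*, a splicing factor gene, gave 12 of the 14. Averaged over those of the 18 types with enough cells in a library, it was at 63.9 and 68.3 CPM in the WT cells of E8.5 (18 types each) and at 38.7, 37.3, 39.4 and 36.2 CPM in those of E9.5 (18, 17, 10 and 18 types). In null cells it was at 94.8 and 133 CPM at E8.5 (18 types each) and at 176, 156, 173 and 169 CPM at E9.5 (18, 17, 13 and 14 types). WT levels fell and null levels rose, without overlap in either genotype. The null cells descend from an injected ESC line and the WT cells from the CD1 host, so for *Cwc22* the line and the *Stat3* deletion cannot be told apart.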

How the data were processed

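The authors sequenced 10x 3′ libraries, mapped reads to mm10 with Cell Ranger, counted UMIs per gene and cell, and deposited 1 matrix of counts for the series with a table of cells. That deposited table gives cell type names, atlas stage, doublet calls and, as percent values, the mitochondrial share. The mapping scores that the authors deposited are fractions of neighbours and were not used for tests. Per-sample columns of values that matched no sample numbered 0. No columns of the authors' own comparisons were used.

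UMIs were summed per library and cell type, keeping sums of over 15 cells. Genes of haemoglobin, ribosomal proteins, mitochondria, the Y chromosome, X inactivation, tdTomato and predicted genes were left out of tests. Each type was fitted with edgeR 4.0.16 (R 4.3.3, filterByExpr, TMM, robust quasi-likelihood), the averaged profile with limma 3.58.1 on log2 CPM with a prior count of 2 (trend, robust), and cell numbers with edgeR under a common dispersion. DESeq2 1.42.0 and limma-voom were alternatives. CPM within a type is TMM-scaled over tested genes, and globin CPM is over all UMIs. The fits of expression, interaction, averaged profile and cell numbers were tried on simulated counts with known fold changes. Other steps, such as the permutation tests and motif counts, were not. Intervals and floors (3 counts) cover counting error only. The cells, gene lists and comparisons were chosen with earlier results of these data known. Named genes were list members, the 15 called in most types in each direction, and, in the type of each tissue with most cells at its smaller stage, the 5 called genes of largest fold in each direction whose stages did not overlap and whose higher stage reached 20 CPM, some of which are given by name only. Coordinates are those of RefSeq GRCm38.p6. Some results are not reported here.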

Additional observations from a re-analysis of the deposited data

Results flagged for a closer look

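The stage change in *Stat3* null cells differed from that in WT cells for 3 genes, by the interaction test. For *Cwc22* the log2 fold change of null cells exceeded that of WT cells by 1.60 in cardiopharyngeal progenitors FHF, 1.53 in dorsal spinal cord progenitors, 1.81 in hindbrain floor plate, 1.15 in limb mesoderm, 1.23 at the midbrain/hindbrain boundary, 1.18 in migratory neural crest, 1.26 in optic vesicle, 1.14 in pharyngeal endoderm, 1.31 in sclerotome, 1.45 in spinal cord progenitors, 1.26 in ventral hindbrain progenitors and 1.71 in YS mesothelium. In thyroid primordium the difference was −2.37 for *Nnat*, an imprinted gene, and 4.02 for *Pax1*. With 1 WT library left out, *Cwc22* lost its call in 8 of the 12 types for at least 1 library, with differences of 1.09 to 1.75 there, and *Pax1* lost it without E8.5 B (3.46), E9.5 A (3.74) or E9.5 B (4.14).

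In 6 of the 55 sets of 4 E9.5 values examined, 1 library stood apart from the other 3, where chance sets 1 apart in about 1 in 20. They were the share of allantois endothelium in library D (0.101%), the share of NMPs in B (0.227%), the averaged levels of *Bnip3* in B (49.7 CPM) and of *Fam162a* (282 CPM) and *Slc2a3* (32.3 CPM) in D, and *Hbb-bs* in erythroid cells of D (1038 CPM). For the last 3 genes and the allantois share, D was the highest of the E9.5 libraries.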

How the results depend on the processing

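The atlas stage difference kept its direction under the alternatives run, and of the named genes 1, *Vegfa*, did not: its averaged rise of 0.21 was −0.0125 when all cells of a library were summed. The majority direction of some counts turned, as given with them. Calls within types, 8649, were 6094 with DESeq2 and 6881 with limma-voom, of which 5468 and 6452 were among the 8649. They were 26118 with no fold threshold (46.5% higher in place of 68.0%) and 4584 with over 50 cells per library, which leaves 11 types, where 4381 of 4760 calls were shared. The averaged profile had 248 calls in place of 158 with a prior count of 0.5, and 1445 when all cells of a library were summed, with 65.9% higher in place of 83.5%, where both the test and the weight of the types differ. Types differing in share were 4 in place of 13 with no minimum of cells, and 17 with no TMM factors, with 41.2% larger in place of 53.8%. Interaction calls were 106 in place of 14 with no filter on low counts. The log2 change was more positive in null cells in 48.1% of them, in place of 92.9%.

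Leaving out 1 library gave 4898 to 10503 calls within types (lowest without E8.5 B), 126 to 265 in the averaged profile (highest without E8.5 A), 0 to 18 types by share, 7 to 20 interaction calls (lowest without E8.5 A) and a stage difference of 0.139 to 0.262 atlas days. Of 1043 refits of named genes in 1 type without 1 library, 132 lost their call. The cause was not tested. Without 1 E8.5 library, the lone sample is assumed to vary like the others. No paired analysis was possible because the cell table carries no replicate numbers for its libraries. Alternatives chosen after seeing the data were leaving out cells with shared barcodes (8601 calls, 8206 shared) and summing E9.5 libraries in pairs (9299 to 9405 calls, 1 pairing in 27 types). Few cells per type, 16 at the least, limit what small types can show.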

Other observations

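*Stmn2*, a microtubule regulator of neurons, was called lower in 7 types, 5 of them of the neural tube, among them ventral hindbrain progenitors, where it was at 122 and 267 CPM at E8.5 and at 24.4, 17.8, 22.6 and 14.6 CPM at E9.5 (edgeR, log2 −3.26 ± 0.42), whereas *Neurog1*, *Neurog2* and *Elavl3* of the same list rose in those cells. *Hes3*, a repressor of early neural plate, was lower in 3 types, in dorsal hindbrain progenitors from 29.5 and 29.2 CPM to 4.08, 8.03, 5.96 and 9.46 CPM. *Crabp1*, which binds retinoic acid, was lower in 4 types and higher in mesenchyme, where it went from 304 and 305 CPM to 718, 699, 750 and 627 CPM (log2 1.19 ± 0.10). These 3 genes were chosen after their values were seen.

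Over the 31 types, the neural progenitor and neuron list had 144 calls higher and 32 lower in 667 tests (beside 2.17% and 1.02% of all tests, as for the lists that follow), the neural crest list 68 and 29 in 379, the somite, muscle and cartilage list 83 and 19 in 403, the limb and lateral mesoderm list 44 and 21 in 430, the surface ectoderm list 34 and 26 in 292, the posterior growth list 16 and 16 in 207, the endothelial list 15 and 38 in 346, the endoderm list 16 and 33 in 274 and the erythroid maturation list 25 and 10 in 391. The neural list had more calls higher than lower in 29 of the 31 types, of which 7 are neural tube types. The erythroid list had more calls higher than lower in 14 types, though only 2 of the 31 are blood types. *Bcl11a*, higher in many types, is a member of the erythroid list. The part of RNA from other cells in these counts was not tested. Without E8.5 B the calls higher and lower were 41 and 19 for neural crest, 55 and 12 for somite, 21 and 14 for surface ectoderm and 7 and 21 for endothelium, with 10 higher for posterior growth, 17 lower for endoderm and 12 higher for erythroid maturation. Without E8.5 A there were 10 higher and 51 lower for endoderm and 27 lower for posterior growth, without E9.5 A 16 higher for erythroid maturation, and without E9.5 D 35 lower for limb, 43 for surface ectoderm, 53 for endoderm and 26 for posterior growth. *Neurog2* in ventral hindbrain progenitors was not called without E8.5 B (adjusted p = 0.0848).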
